A study of Mus musculus with 2 samples.

Results

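The cells described here are thymocytes in which exactly 1 T cell receptor (TCR) alpha chain (TRA) and exactly 1 beta chain (TRB) were recovered, so that the pair of chains of a cell is known without a choice between contigs. They were found by counting the deposited contigs of each cell barcode. They number 2872 of 9117 barcodes: 1406 of 4040 in the WT library, or 34.8% (33.3 to 36.3%), and 1466 of 5077 in the Btla KO library, or 28.9% (27.6 to 30.1%). Most other barcodes held 1 TRB and no TRA chain, 2336 in WT and 3279 in Btla KO. Of the cells with both kinds of chain, 84.0% (82.2 to 85.8%) in WT and 84.5% (82.7 to 86.2%) in Btla KO had 1 of each, and the other 267 and 269 cells had more chains.

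The study examined how BTLA, a co-inhibitory receptor of T cells, relates to the receptor CD5 and to tolerance in newly made T cells. These libraries served to ask whether the TCRs of thymic CD4 T cells differ without BTLA. The study also used mice with a fixed TCR for that question. CD4 single positive (SP) thymocytes were enriched by negative selection with a kit for naive CD4 T cells, and their TCR transcripts were amplified and sequenced from single cells. The WT group was C57BL/6J and the Btla KO group C57BL/6-Btla KO, both aged 8 to 12 weeks and otherwise prepared alike. Each genotype is 1 library, and the number of mice behind a library is not given in the sources used here. No difference between genotypes could therefore be tested, and no p-value is given. Shares carry exact (Clopper-Pearson) 95% intervals and cell numbers exact Poisson intervals, which cover counting error only. The libraries hold TCR transcripts, so neither the CD4 SP label nor the loss of Btla could be checked with marker genes.

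An alpha chain is assembled from 1 V and 1 J segment and a beta chain from a V, a D and a J segment, with bases trimmed and added at the joints. The joint forms the third complementarity-determining region (CDR3), the loop that lies over the peptide when the TCR meets peptide and MHC. The beta chain is assembled first, and the alpha locus can be joined again and again in the same cell, each time using V segments farther out and J segments farther down. A CDR3 is counted here from its conserved cysteine to the last residue before the conserved glycine motif, both ends included.

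The members rested on 9191823 reads and 27588 UMIs in WT and on 6735932 reads and 23025 UMIs in Btla KO. A UMI marks 1 captured transcript. The TRA chain had a median of 3 UMIs in both libraries, with quartiles of 2 and 5 in WT and 2 and 4 in Btla KO. The TRB chain had a median of 13 UMIs (quartiles 8 and 20) in WT and 10 (6 and 16) in Btla KO. A single UMI carried the TRA chain in 14.6% of WT and 19.4% of Btla KO members, and both chains had at least 3 UMIs in 930 and 771 members. The libraries shared 30 barcodes, of which 8 WT and 11 Btla KO barcodes were members.

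The germline J segments set out here are those with the shortest and the longest mean CDR3 in these cells, and they show how much of the loop a J segment writes. They were read from GRCm38 on the plus strand, 5′ to 3′, with the bases that fall inside the CDR3 in capitals.
TRAJ31, chr14:54187895-54187951: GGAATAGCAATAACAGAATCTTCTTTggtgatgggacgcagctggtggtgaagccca
TRAJ43, chr14:54174742-54174798: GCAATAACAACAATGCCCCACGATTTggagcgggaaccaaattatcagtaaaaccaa
TRAJ33, chr14:54185358-54185414: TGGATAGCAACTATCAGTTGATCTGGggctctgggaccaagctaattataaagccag
TRAJ2, chr14:54217836-54217901: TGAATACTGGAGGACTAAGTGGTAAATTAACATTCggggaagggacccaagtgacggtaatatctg
TRAJ52, chr14:54165316-54165381: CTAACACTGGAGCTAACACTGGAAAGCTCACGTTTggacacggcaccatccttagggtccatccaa
TRAJ53, chr14:54162644-54162709: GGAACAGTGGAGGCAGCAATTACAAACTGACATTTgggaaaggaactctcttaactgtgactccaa
TRBJ2-7, chr6:41543810-41543856: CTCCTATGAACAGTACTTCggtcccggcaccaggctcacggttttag
TRBJ2-2, chr6:41542957-41543007: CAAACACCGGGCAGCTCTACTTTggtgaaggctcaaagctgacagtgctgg
Each of these segments is the J exon of its gene, with the splice junction to the constant region at its 3′ end. The first 3 write 26 bases of the CDR3 and the next 3 write 35, while TRBJ2-7 writes 19 and TRBJ2-2 writes 23.

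The CDR3 sequences that follow are from members and show 1 alpha chain beside different beta chains. Capitals mark the bases at the 3′ end that equal the germline J segment, and lower case marks the V part and the joint.
TRAV11-TRAJ18, in 2 WT and 4 Btla KO cells: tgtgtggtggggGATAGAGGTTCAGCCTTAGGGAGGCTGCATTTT
its shortest TRB partner, joint call TRBV12-2+TRBV13-2 with TRBJ2-7, WT: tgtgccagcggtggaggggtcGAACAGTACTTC
its longest TRB partner, joint call TRBV12-2+TRBV13-2 with TRBJ2-1, WT: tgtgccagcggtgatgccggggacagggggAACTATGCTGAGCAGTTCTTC
a TRBV29 partner with TRBJ2-4, Btla KO: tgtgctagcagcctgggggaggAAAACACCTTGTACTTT
TRAV14 copies with TRAJ13, in 2 WT and 2 Btla KO cells: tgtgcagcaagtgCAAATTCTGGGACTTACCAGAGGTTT
TRAV14 copies with TRAJ22, in 1 WT and 3 Btla KO cells: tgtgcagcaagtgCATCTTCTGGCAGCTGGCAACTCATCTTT
TRAV1-TRAJ33, in 1 WT and 1 Btla KO cell: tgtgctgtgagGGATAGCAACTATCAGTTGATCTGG
The 6 cells with the first sequence had TRB CDR3s of 11, 13, 13, 14, 15 and 17 amino acids.

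The members used a broad set of genes. They held 20 TRAV subgroups in WT and 19 in Btla KO, 43 TRAJ genes, 19 TRBV subgroups and 12 TRBJ genes. A V subgroup joins genes with the same number, such as the near-identical copies of TRAV6 that lie in repeated blocks of the alpha locus, since the annotation can exchange such copies. One call names both TRBV12-2 and TRBV13-2 and was kept as its own group. It made up 8.18% (6.80 to 9.74%) in WT and 8.39% (7.02 to 9.93%) in Btla KO.

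TRAV6 was the most used alpha V subgroup in WT, at 15.3% (13.4 to 17.3%). In Btla KO it shared that place with TRAV7, each in 220 cells or 15.0% (13.2 to 16.9%). TRAV7 was in 12.7% (10.97 to 14.5%) of WT members. TRAV12, TRAV14 and TRAV13 followed, at 12.3, 9.89 and 9.96% in WT and 11.6, 11.1 and 10.9% in Btla KO. Intervals of the libraries were apart for 0 of 16 TRAV subgroups that reached 1% in a library (0%), so the order of the leading subgroups did not differ beyond counting error. A subgroup joins copies at different distances from the J cluster, so this comparison can hide a shift along the V cluster. The most used J genes were TRAJ22, TRAJ31 and TRAJ23, at 4.20, 4.91 and 3.77% in WT and 4.78, 4.09 and 4.84% in Btla KO. Intervals were apart for 2 of 40 TRAJ genes (5%). These were TRAJ2, with 1.42% (0.871 to 2.19%) in WT against 4.09% (3.14 to 5.24%) in Btla KO, and TRAJ4, with 2.28% (1.56 to 3.20%) against 4.64% (3.62 to 5.84%). Both lie at the end of the J cluster that is next to the constant region. Their neighbours there were mixed, with overlapping intervals. TRAJ6 was in 1.71% of WT and 3.27% of Btla KO members, TRAJ5 in 1.21 and 1.30% and TRAJ7 in 2.56 and 2.05%. With J genes joined into 3 groups by number, the libraries differed more. TRAJ1 to TRAJ20 made up 25.8% (23.5 to 28.2%) of WT and 36.3% (33.8 to 38.8%) of Btla KO members, and TRAJ41 to TRAJ61, the J genes on the V side, made up 31.0% (28.6 to 33.5%) and 23.9% (21.8 to 26.2%). TRAJ21 to TRAJ40 made up 43.2 and 39.8%, with overlapping intervals.

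Among beta chains, TRBV13 led with 12.9% (11.2 to 14.8%) in WT and 12.1% (10.5 to 13.9%) in Btla KO, ahead of TRBV12 with 10.2 and 9.69%. TRBV5 was in 7.75 and 6.62% and TRBV3 in 6.69 and 7.03%. The largest difference was that of TRBV19, with 7.54% (6.21 to 9.05%) in WT against 5.25% (4.17 to 6.52%) in Btla KO and overlapping intervals. Intervals were apart for 0 of 18 TRBV subgroups (0%) and for 1 of 12 TRBJ genes (8.33%). That gene was TRBJ1-6, with 4.48% (3.46 to 5.70%) in WT against 2.46% (1.73 to 3.38%) in Btla KO. TRBJ2-7 was the most used J gene of the beta chain in both libraries, at 15.9% (13.99 to 17.9%) and 15.7% (13.9 to 17.7%). TRBJ1-1 followed in WT with 12.7% and TRBJ2-5 in Btla KO with 11.7%.

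**Figure D1:**
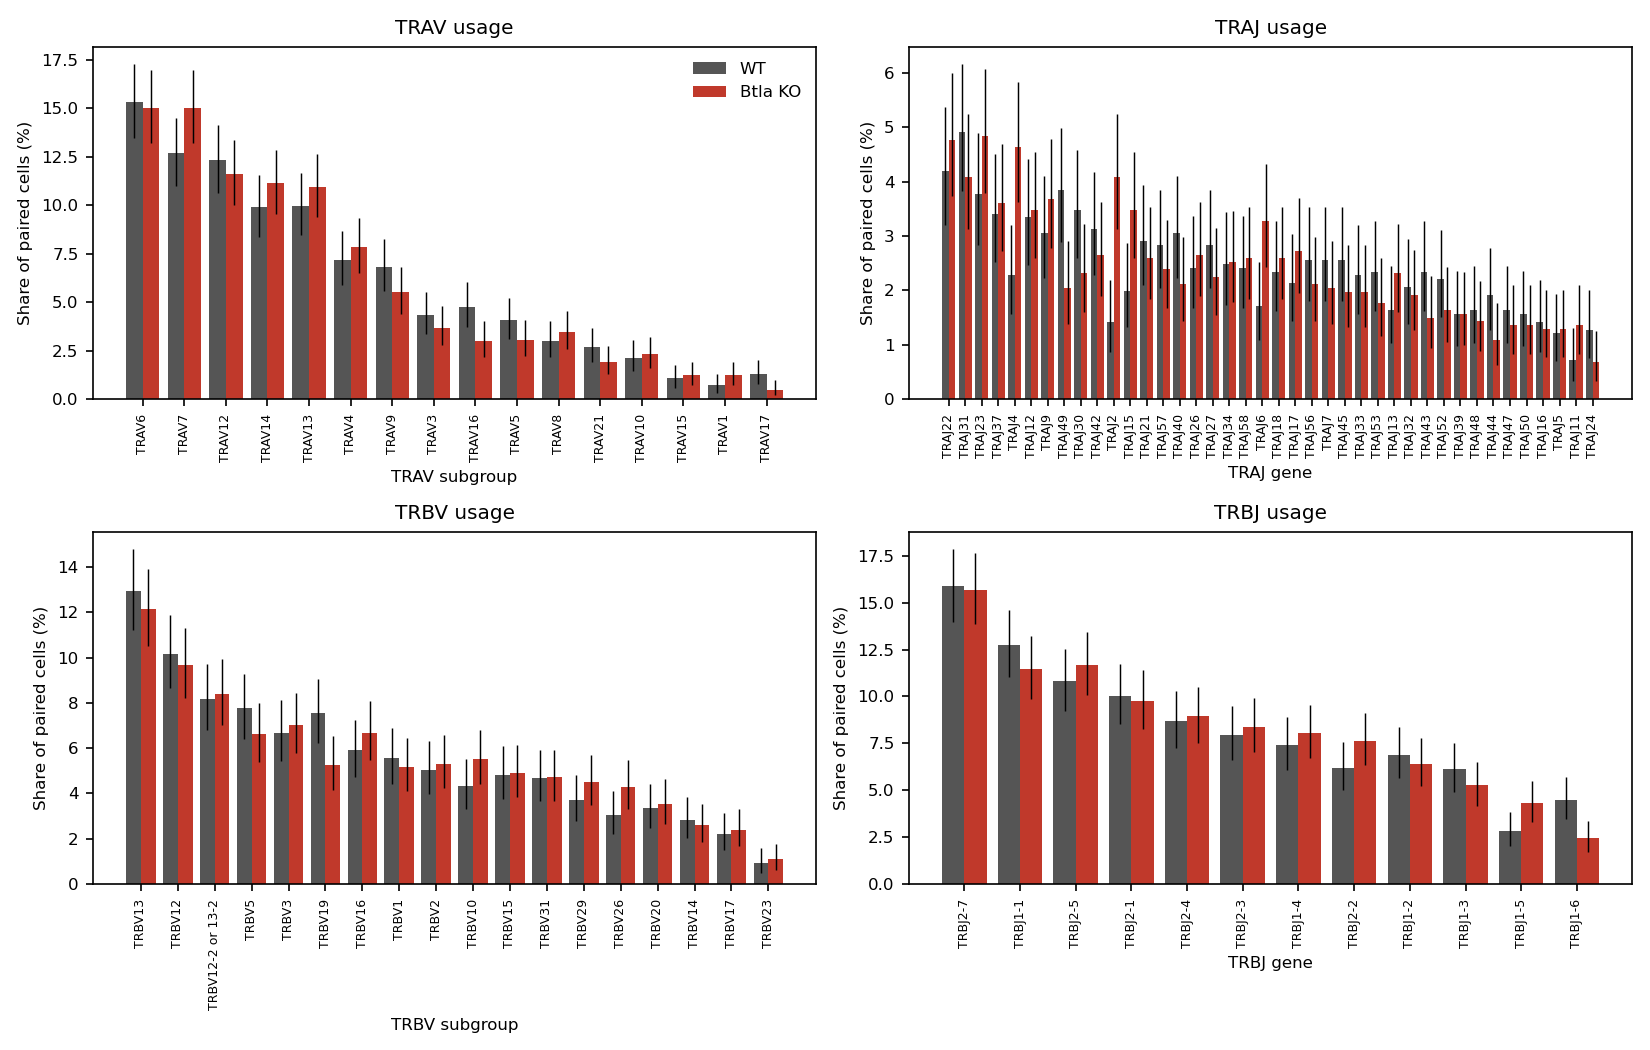
Share of paired cells (%, vertical axes) that used each TRAV subgroup, TRAJ gene, TRBV subgroup and TRBJ gene with at least 1% in a library, ordered by the number of cells in both libraries together. Grey bars are WT (1406 cells) and red bars Btla KO (1466 cells), and lines are exact 95% binomial intervals; those of TRAJ2, TRAJ4 and TRBJ1-6 do not overlap.

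Which alpha genes went with which beta genes was described by setting the number of cells with a pair beside the number expected from the product of the 2 usages in the same library. A pair was counted as past the fold when it was at least 1.5 times above or below that number, among pairs with at least 5 expected cells. A smaller change in cell number passes this fold below than above. More pairs below than above are thus not a sign of fewer pairings. The 2 libraries were then compared, to see whether the same pairs stood out in both.

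Alpha and beta V subgroups were found together about as often as their usages gave. The most frequent pair was TRAV6 with TRBV13, in 31 WT cells where 27.8 were expected and in 26 Btla KO cells where 26.7 were expected. TRAV7 with TRBV13 was in 22 WT cells (23.0 expected) and 25 Btla KO cells (26.7 expected). TRAV6 with TRBV12 was in 22 and 21 cells, where 21.9 and 21.3 were expected. The pairs that led were thus pairs of the most used subgroups, with ratios close to 1 in both libraries.

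Of 100 TRAV and TRBV pairs in WT, 6 were above and 20 below the expected number by the fold (26%), and of 103 in Btla KO 4 were above and 9 below (12.6%). In both libraries in the same direction, the count was 0 above and 2 below among 93 pairs (2.15%). Across these 93 pairs, which share genes and differ in cell number, the ratios of the libraries had r = 0.05 (rho = 0.03). With every cell that had both kinds of chain, taken by its contigs with most reads, r was 0.24 over 103 pairs, and 2 of these were again past the fold in both. The Poisson interval of the cell number contained the expected number for each of the pairs in both libraries. At few cells this interval is wide and can hold the expected number of a pair past the fold. For 2 cells it ran from 0.242 to 7.22. The 2 pairs past the fold below the expected number in both were TRAV12 with TRBV20, in 2 WT and 2 Btla KO cells where 5.78 and 6.03 were expected, and TRAV14 with TRBV2, in 4 and 5 cells where 7.02 and 8.67 were expected. Over both libraries their ratios were 0.34 (0.09 to 0.87) and 0.57 (0.26 to 1.09). Of the pairs above the expected number in both, TRAV14 with TRBV3 had the highest ratio, with 16 WT cells (9.29 expected) and 15 Btla KO cells (11.5 expected), or 1.49 (1.02 to 2.12) over both. It was picked as the extreme of the listed pairs, and its interval does not allow for that choice.

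J genes of the 2 chains gave a similar picture. TRAJ22 with TRBJ2-7 was the most frequent pair, in 12 WT cells (9.36 expected) and 15 Btla KO cells (10.98 expected). Past the fold were 14 of 52 pairs in WT (26.9%) and 16 of 64 in Btla KO (25%), but 1 of 33 pairs in both (3.03%). That pair was TRAJ9 with TRBJ2-7, in 4 and 5 cells where 6.82 and 8.47 were expected. The ratios of the libraries had r = -0.11 over these 33 pairs. The Poisson interval left out the expected number in 1 of 52 WT and 2 of 64 Btla KO pairs. Alpha V subgroups with beta J genes passed the fold in 16 of 95 pairs in WT (16.8%), 8 of 90 in Btla KO (8.89%) and 2 of 85 in both (2.35%), with r = 0.01. The 2 were TRAV3 with TRBJ2-7, in 5 and 5 cells where 9.67 and 8.47 were expected, and TRAV7 with TRBJ1-6, in 5 and 2 cells where 7.98 and 5.40 were expected. For alpha V subgroups with beta J genes, the Poisson interval left out the expected number in 4 of 95 WT and 3 of 90 Btla KO pairs. With TRAJ genes joined into the 3 groups by number, more cells stood behind each pair. Then 0 of 52 pairs with TRBV subgroups in WT (0%), 2 of 53 in Btla KO (3.77%) and 0 of 52 in both (0%) passed the fold. The ratios of the libraries had r = 0.17 over the 52 pairs, and r ran from 0.04 to 0.24 over the alternatives. Over both libraries together, 2 of the 52 pairs had an interval of the ratio that excluded 1, on the same side in each library. TRAJ41 to TRAJ61 with TRBV31 was above, at 1.35 (1.003 to 1.78), and TRAJ21 to TRAJ40 with TRBV16 below, at 0.76 (0.58 to 0.99). They were picked from the 52, and the intervals do not allow for that.

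Within a chain the pairs differed between alpha and beta. TRAV subgroups with the 3 TRAJ groups passed the fold in 11 of 42 pairs in WT (26.2%), 13 of 45 in Btla KO (28.9%) and 8 of 40 in both (20%). The ratios of the libraries had r = 0.90 and rho = 0.69 over the 40 pairs, and r = 0.72 without TRAV21. The count in both rested in part on TRAV21: it was 4 of 37 pairs without TRAV21. Where both chains had at least 3 UMIs it was 2 of 33. That set held 930 WT and 771 Btla KO cells, so fewer pairs reached 5 expected cells. Depth and cell number cannot be told apart there. TRBV subgroups with TRBJ genes passed it in 31 of 118 pairs (26.3%), 37 of 134 (27.6%) and 5 of 111 (4.5%), with r = 0.12 over the 111 pairs. Of these 5, TRBV10 with TRBJ2-4 was above, in 10 WT and 12 Btla KO cells where 5.29 and 7.24 were expected. The other 4 were below. TRBV16 with TRBJ1-3 and TRBV2 with TRBJ2-1 had ratios of 0.39 (0.11 to 1.002) and 0.48 (0.19 to 0.98) over both libraries, and TRBV20 with TRBJ2-5 and TRBV16 with TRBJ1-2 had 0.54 (0.20 to 1.17) and 0.58 (0.23 to 1.20). The Poisson interval left out the expected number in 8 of 42 WT and 11 of 45 Btla KO pairs of TRAV with the TRAJ groups. For TRBV with TRBJ it did so in 5 of 118 and 2 of 134 pairs.

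**Figure D2:**
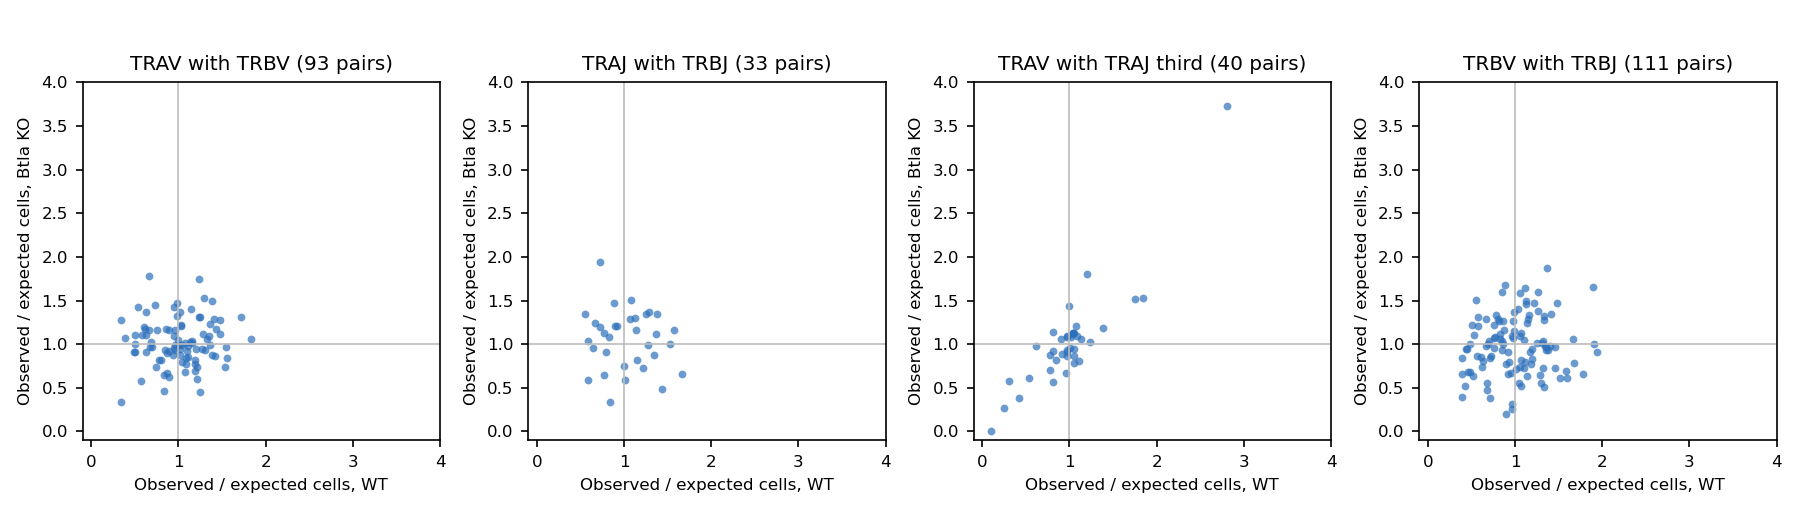
Observed over expected number of cells of each pair in WT (horizontal) and in Btla KO (vertical), on linear axes, for 4 kinds of pair with at least 5 expected cells in both libraries. Each point is 1 pair and grey lines mark a ratio of 1; the points form a round cloud for TRAV with TRBV, TRAJ with TRBJ and TRBV with TRBJ, and lie along a rising line for TRAV with the 3 TRAJ groups, where the point at the upper right is TRAV21 with TRAJ41 to TRAJ61.

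Most of the alpha pairs that recurred followed the order of the genes on chromosome 14. Many subgroups have copies spread along the V cluster, so their median distance is not the place of 1 gene. TRAV21, the V gene of the members nearest to the J cluster, lies 345 kb from the constant gene TRAC, and it was joined to TRAJ41 to TRAJ61, the J genes on the V side, in 33 WT cells (11.8 expected) and 25 Btla KO cells (6.70 expected). It was joined to TRAJ1 to TRAJ20 in 1 WT and 0 Btla KO cells, where 9.81 and 10.2 were expected, and to TRAJ21 to TRAJ40 in 4 and 3 cells, where 16.4 and 11.1 were expected. TRAV17, also close to the J cluster, was joined to TRAJ21 to TRAJ40 in 4 and 1 cells, where 7.77 and 2.78 were expected, the latter below the minimum of 5, so that it is not among the 40 pairs. TRAV3, at a median of 937 kb, was joined to TRAJ1 to TRAJ20 in 29 WT cells (15.7 expected) and 30 Btla KO cells (19.6 expected) and to TRAJ41 to TRAJ61 in 8 and 5 cells (18.9 and 12.9 expected). TRAV8, at a median of 875 kb, had the same order, with 19 and 28 cells for TRAJ1 to TRAJ20, where 10.8 and 18.51 were expected, and 4 and 7 cells for TRAJ41 to TRAJ61, where 13.02 and 12.2 were expected. TRAV16 had a similar median of 869 kb but leaned the other way. Its genes lie from 477 to 1173 kb, and those of TRAV8 from 751 to 1442 kb. TRAV16 was joined to TRAJ41 to TRAJ61 in 25 WT cells (20.8 expected) and 19 Btla KO cells (10.5 expected). Its ratio was 1.41 (1.02 to 1.89) over both, without passing the fold in both. TRAV10, with genes from 715 to 1410 kb, was joined to TRAJ41 to TRAJ61 in 5 and 5 cells, where 9.30 and 8.14 were expected. This pair was past the fold in both. The nearest TRAV16 gene thus lies nearer to the J cluster than any TRAV10 or TRAV8 gene. TRAV3, with genes from 444 to 1640 kb, has a nearer one still. Whether single genes of a subgroup went with these leanings was not tested.

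Over single cells, the distance of the TRAV gene from TRAC and the number of the TRAJ gene, which falls toward TRAC, had rho = -0.45 in 1406 WT and -0.44 in 1466 Btla KO members. Cells with the same TRAV gene share 1 distance in this measure, and the gene is the called copy, which the annotation can exchange. At the ends of the V cluster, TRAV1 and TRAV2 had a mean TRAJ number of 22.1 ± 11.3 (SD over 16 cells) in WT and 18.9 ± 9.71 (30 cells) in Btla KO. TRAV17, TRAV18, TRAV19 and TRAV21 had 49.3 ± 9.49 (65 cells) and 48.1 ± 9.04 (49 cells). Of the cells with these near genes, 83.1% (71.7 to 91.2%) in WT and 81.6% (68.0 to 91.2%) in Btla KO used TRAJ41 to TRAJ61, against 1 of 16 and 1 of 30 cells with the far genes.

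**Figure D3:**
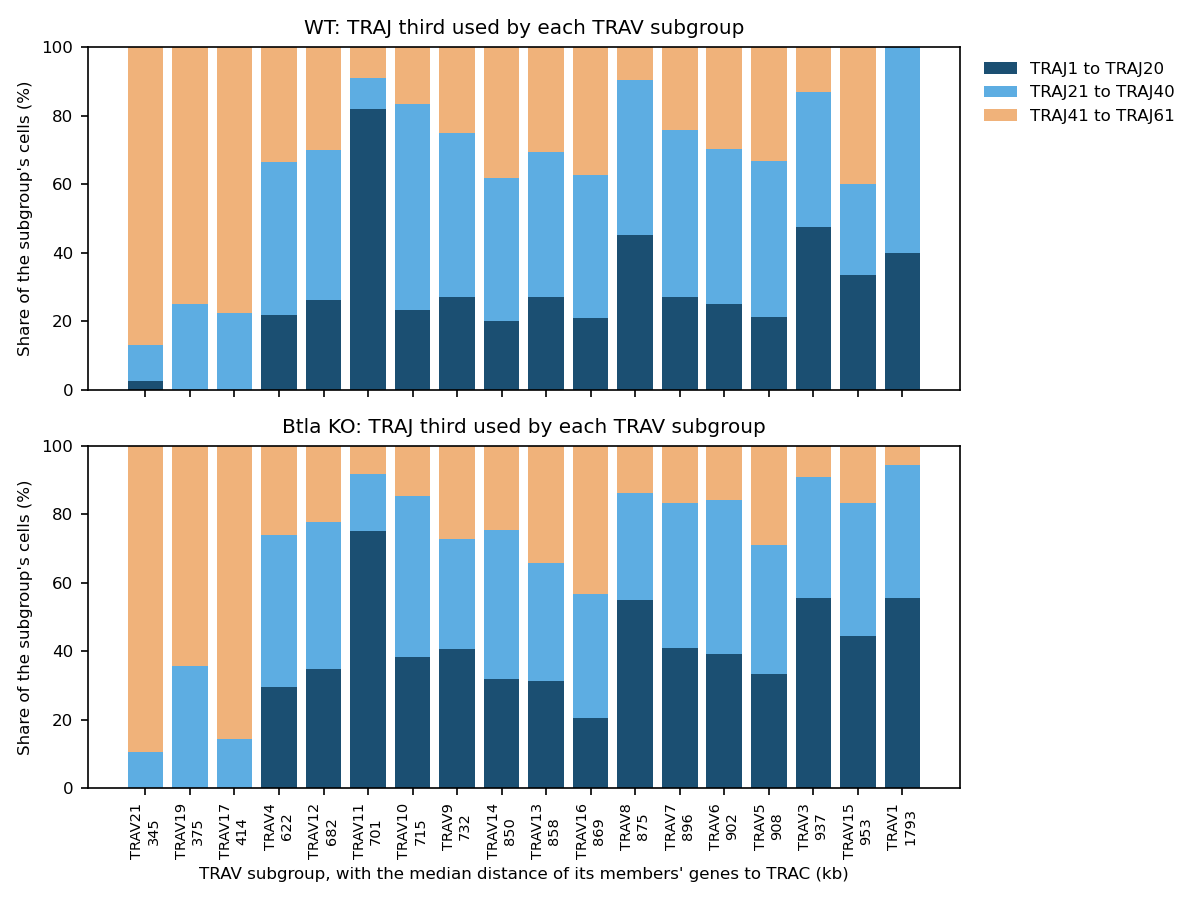
Share of the cells of each TRAV subgroup (%, vertical axis) that used TRAJ1 to TRAJ20 (dark blue), TRAJ21 to TRAJ40 (light blue) or TRAJ41 to TRAJ61 (orange), in WT above and Btla KO below. Subgroups with at least 20 cells over both libraries are ordered from left to right by the median distance of their cells' genes to TRAC in kb; TRAV21, TRAV19 and TRAV17 at the left used mainly TRAJ41 to TRAJ61 in both libraries.

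The members were also divided into 3 groups by the distance of their TRAV gene, nearly equal over both libraries together. The distance is that of the called gene, and the annotation can exchange near-identical copies. One TRA sequence with TRAJ13, in 2 WT and 2 Btla KO cells, was called as different TRAV14 copies from 850 to 1142 kb. These calls fall in the middle and the farthest group. How such calls move the shares was not tested. The nearest group held 535 of 1406 WT and 445 of 1466 Btla KO members, a larger share in WT. This difference in TRAV use by distance was not tested. In the nearest group (345 to 689.7 kb) the share with TRAJ1 to TRAJ20 was 6.73% (4.76 to 9.19%) of 535 WT and 6.97% (4.78 to 9.74%) of 445 Btla KO cells. In the middle group (701 to 967 kb) it was 38.7% (34.1 to 43.4%) of 437 and 46.0% (41.6 to 50.5%) of 504 cells. In the farthest group (989 to 1793 kb) it was 36.4% (31.9 to 41.1%) of 434 and 52.0% (47.6 to 56.4%) of 517 cells. Intervals of the libraries were apart in the farthest group and overlapped in the others, and whether the difference varied between the groups was not tested. With the boundary at TRAJ30 in place of TRAJ20 the Btla KO share was larger by 6.44, lower by 0.761 and larger by 11.9 percentage points in the nearest, middle and farthest group, so the direction in the middle group rested on the boundary. The farthest group kept its direction at each boundary tried. The TRA chains behind these shares had a median of 3 UMIs in both libraries, and leaving out members with a chain under 3 UMIs gave a difference of 12.9 points in the farthest group at the boundary of TRAJ30, beside 11.9 for all members.

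Within the beta chain, the locus order was seen in the D and C segments. A D gene was called in 228 (TRBD1) and 81 (TRBD2) WT cells and in 205 and 100 Btla KO cells. TRBD2, which lies between the TRBJ1 and TRBJ2 clusters, was joined to a TRBJ2 gene in 80 of 81 WT cells and in 100 of 100 Btla KO cells, or 100% (96.4 to 100%). TRBD1, which lies before both, was joined to TRBJ2 in 47.8% (41.2 to 54.5%) and 46.3% (39.4 to 53.4%). All 567 WT and 549 Btla KO chains with TRBC1 had a TRBJ1 gene, and all 835 and 907 with TRBC2 had a TRBJ2 gene.

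The lengths of the 2 CDR3s of a cell were close to unrelated. Pearson's r between TRA and TRB CDR3 length was 0.007 (95% interval over cells -0.045 to 0.060) in 1406 WT and 0.010 (-0.042 to 0.061) in 1466 Btla KO members, and Spearman's rho was 0.004 and 0.031. With the mean of each V and J gene subtracted, r was -0.008 and 0.006. The mean TRA CDR3 was 13.8 ± 1.46 amino acids (SD over cells) in WT and 13.7 ± 1.501 in Btla KO, and the mean TRB CDR3 was 14.1 ± 1.48 and 14.2 ± 1.51. Both chains had their most frequent length at 14 amino acids.

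The sum of the 2 lengths ran from 20 to 35 in WT and from 21 to 34 in Btla KO. Its SD was 2.09 and 2.14, where chains with no relation would give 2.08 and 2.13. Both loops had equal length in 270 WT cells, or 19.2%, where the product of the 2 length distributions gave 19.4%. In Btla KO they did so in 318 cells, or 21.7%, where it gave 18.8%. Equal lengths were thus more frequent than the product in Btla KO but not in WT. No interval was computed for these 2 shares. The TRB loop was the longer in 655 and 707 cells and the TRA loop in 481 and 441.

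Beside TRA CDR3s of 11 amino acids the mean TRB CDR3 was 14.5 ± 1.32 (SD over 41 cells) in WT and 13.8 ± 1.46 (72 cells) in Btla KO. Beside those of 14 it was 14.1 ± 1.40 (413 cells) and 14.2 ± 1.48 (404 cells), and beside those of 17 it was 14.2 ± 1.47 (31 cells) and 14.1 ± 1.66 (36 cells). These means were in a different order in the 2 libraries. The relation was also computed within each V or J gene with at least 50 members in a library. The 75 values of r ran from -0.29 to 0.31 with a median of 0.02, and 42 were above 0. Of 34 genes with a value in both libraries, 16 had the same sign.

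**Figure D4:**
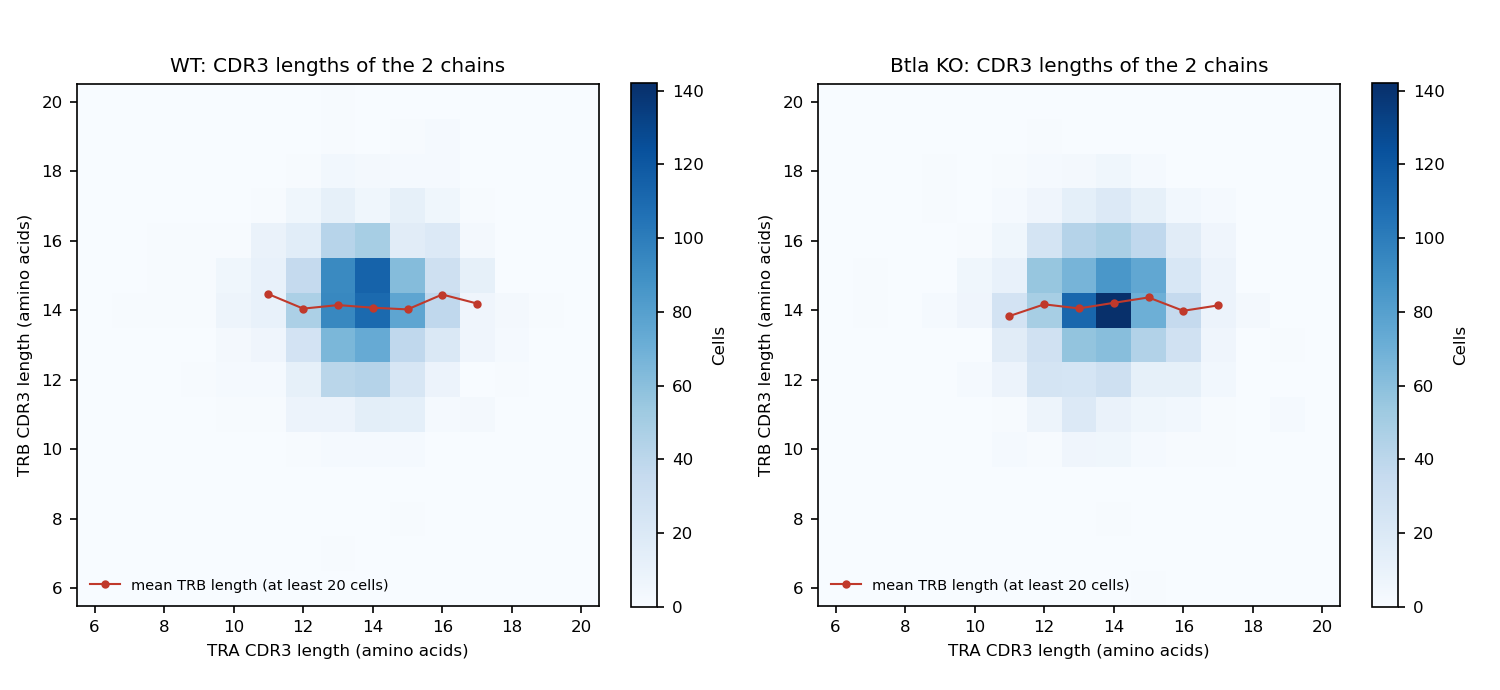
Number of cells (blue scale) at each combination of TRA CDR3 length (horizontal, amino acids) and TRB CDR3 length (vertical, amino acids) in WT, left, and Btla KO, right. The red line is the mean TRB length at each TRA length with at least 20 cells; it stays near 14 amino acids from a TRA length of 11 to 17.

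The length of each CDR3 went with the J gene of its own chain. J genes accounted for 30.4% of the variance of TRA length in WT and 32.2% in Btla KO (adjusted for the number of genes), and V subgroups for 6.92 and 6.98%. Of TRB length, J genes accounted for 11.5 and 10.5% and V subgroups for 4.43 and 3.83%. The genes of the other chain accounted for 0.397 and 0.0195% of TRB length and for 0.101 and 0.301% of TRA length.

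Members with TRAJ31 had the shortest TRA CDR3s, 12.1 ± 1.66 (SD over 69 cells) in WT and 12.1 ± 1.14 (60 cells) in Btla KO. TRAJ43 had 12.7 ± 0.816 (33 cells) and 12.3 ± 1.29 (22 cells), and TRAJ33 had 13.1 ± 1.25 (32 cells) and 12.2 ± 1.49 (29 cells). The longest were with TRAJ2, 15.3 ± 1.49 (20 cells) and 15.6 ± 1.29 (60 cells), TRAJ52, 15.6 ± 1.31 (31 cells) and 14.8 ± 1.38 (24 cells), and TRAJ53, 15.3 ± 1.10 (33 cells) and 15.0 ± 1.22 (26 cells). The germline sequences printed at the start show the same order, 26 bases of CDR3 for the short ones and 35 for the long ones. Over 39 TRAJ genes with at least 30 members, germline bases and mean length had r = 0.94. The mean length per TRAJ gene had r = 0.93 between the libraries, a description over genes of different cell number.

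The TRB partners did not follow. Their mean length beside each of the 39 TRAJ genes lay between 13.7 and 14.7 amino acids, with r = -0.06 against the TRA length of the same gene and r = 0.15 between the libraries. TRAJ31, with the shortest loops, had partners of 14.2 in WT and 14.3 in Btla KO, and TRAJ53, with long loops, had partners of 13.8 and 13.96. TRAJ2 had partners of 13.9 and 14.5.

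For the beta chain, TRBJ2-7 gave the shortest CDR3s, 13.4 ± 1.31 (223 cells) in WT and 13.3 ± 1.60 (230 cells) in Btla KO, before TRBJ1-1 with 13.4 ± 1.45 (179 cells) and 13.7 ± 1.51 (168 cells). TRBJ2-2 gave the longest, 14.9 ± 1.18 (87 cells) and 14.9 ± 1.52 (112 cells). Germline bases and mean length had r = 0.73 over the 12 TRBJ genes, lower than for TRAJ. The mean length of the TRA partners lay between 13.6 and 13.9 amino acids. It had r = 0.28 against the TRB length of the same gene and r = -0.35 between the libraries. V subgroups moved the mean length of their own chain less. TRAV13, TRAV10 and TRAV4 had means of 13.3 over both libraries, and TRAV15, TRAV21 and TRAV16 had 15.4, 14.9 and 14.9. TRBV20 had 13.4, and TRBV2, TRBV1 and TRBV5 had 14.8, 14.7 and 14.7.

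**Figure D5:**
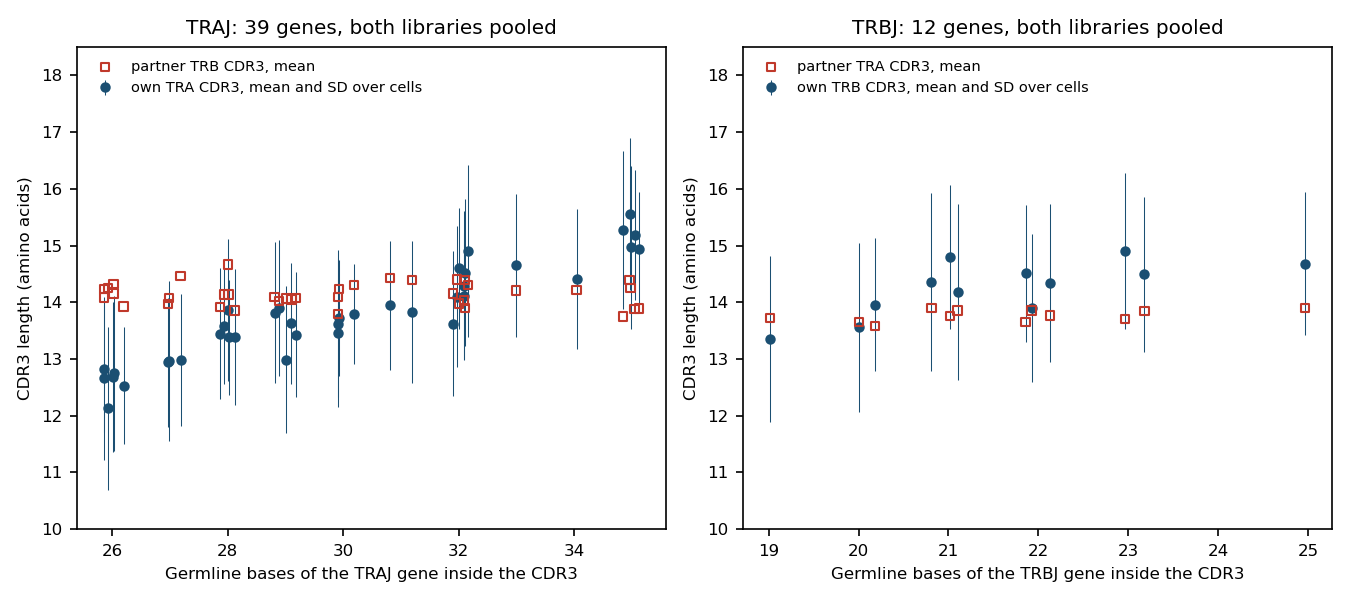
Mean CDR3 length (vertical, amino acids) of the cells with each J gene against the germline bases of that gene inside the CDR3 (horizontal, shifted by up to 0.2 to part the points), for 39 TRAJ genes, left, and 12 TRBJ genes, right, over both libraries. Filled circles with lines are the mean and SD over cells of the gene's own chain, which rise from left to right. Open squares are the mean of the partner chain, which lie between 13.7 and 14.7 for TRAJ and between 13.6 and 13.9 for TRBJ.

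Trimming of the 2 J segments was close to unrelated. TRA chains lacked a mean of 3.06 ± 2.79 germline J bases in WT and 3.10 ± 2.86 in Btla KO, and TRB chains lacked 2.66 ± 2.51 and 2.70 ± 2.54. The bases lacking in the 2 chains of a cell had r = 0.01 and -0.00. The J segment made up 64.6 and 65.3% of the bases of the TRA CDR3 and 43.6 and 43.3% of the TRB CDR3, where a D segment and 2 joints take a part.

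The net charge of the loops, counted as lysine and arginine minus aspartate and glutamate, had opposite signs in the 2 chains. It was on average 0.60 ± 0.86 (SD over cells) for TRA and -0.70 ± 1.03 for TRB in WT, and 0.66 ± 0.88 and -0.72 ± 1.07 in Btla KO. Within cells the charges had r = 0.02 and -0.01. A net negative TRB loop was found in 60.9% (52.1 to 69.2%) of WT cells with a net negative TRA loop and in 57.6% (54.2 to 61.04%) of those with a net positive one. In Btla KO the shares were 59.8% (50.6 to 68.6%) and 59.1% (55.8 to 62.3%).

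The 4 genes of both chains together gave nearly as many combinations as cells. In WT 1384 combinations of single V and J genes were found in 1406 cells, 1363 of them once, and in Btla KO 1436 in 1466 cells, 1406 of them once. The libraries had 10 combinations in common. Cells with identical nucleotide sequences of both CDR3s formed 18 groups with 37 cells in WT, or 2.63% (1.86 to 3.61%), and 26 groups with 52 cells in Btla KO, or 3.55% (2.66 to 4.63%). All were pairs of cells but 1, a WT group of 3 cells with TRAV14-2, TRAJ40, TRBV13-1 and TRBJ2-1. Its TRA chain had 1, 4 and 4 UMIs and its TRB chain 2, 4 and 11. Both chains had at least 3 UMIs in every cell of 5 WT and 10 Btla KO groups. Whether the others are cells of 1 clone was not tested.

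Alpha CDR3s recurred between the libraries more than beta CDR3s. The same TRA nucleotide sequence was found in both for 19 sequences, held by 24 WT cells, or 1.71% (1.10 to 2.53%), and 26 Btla KO cells, or 1.77% (1.16 to 2.59%). For TRB it was 2 sequences, in 2 cells of each library, or 0.142% (0.0172 to 0.513%) and 0.136% (0.0165 to 0.492%). The shared sequences include chains of TRAV11 with TRAJ18, in 2 WT and 4 Btla KO cells, in 1 and 2, and in 2 and 1. They also include TRAV1 with TRAJ33, in 1 cell of each library. With these counted, the shared TRA sequences lacked a mean of 1.58 germline J bases in both libraries, and the others lacked 3.09 in WT and 3.13 in Btla KO. Their length was near that of the others, 13.96 ± 1.27 beside 13.8 ± 1.46 amino acids in WT. The TRAV14 sequences with TRAJ13 and TRAJ22 printed at the start were each in 4 cells, beside TRB CDR3s of 13 to 15 and of 13 to 17 amino acids. These sequences thus came with partners of several V calls. They were TRBV12, TRBV13, TRBV5 and the joint call for the TRAJ13 sequence, and TRBV3, TRBV31 and the joint call for the TRAJ22 sequence. The joint call names a TRBV12 and a TRBV13 gene and was not assigned to either. Its CDR3s printed at the start begin with tgtgccagcggt. The WT chain called TRBV13-2 beside TRAV11 with TRAJ18 begins with the same bases. A Btla KO chain called TRBV12-2 with TRBJ1-3 begins with tgtgccagctctctc. The shared TRAV1 with TRAJ33 sequence came with TRBV19 only.

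TRAV11 with TRAJ18, the semi-invariant alpha chain of invariant NKT cells, was in 8 WT members, or 0.569% (0.246 to 1.12%), and 9 Btla KO members, or 0.614% (0.281 to 1.16%). Of these 17 cells 16 had a TRA CDR3 of 15 amino acids, and 1 WT cell had 13. Their beta partners in WT were TRBV13 in 3 cells, the joint call in 3, TRBV29 in 1 and TRBV1 in 1. In Btla KO they were TRBV29 in 4 cells, the joint call in 2, and TRBV13, TRBV15 and TRBV5 in 1 each. TRBV13, TRBV29 and TRBV1 include the beta chains known for these cells in mice. TRAV1 with TRAJ33, the alpha chain of mucosal-associated invariant T cells, was in 2 WT and 1 Btla KO cells, with TRBV19 in 1 cell of each library and TRBV12 in 1 WT cell. The TRBV19 partners had CDR3s of 16 and 15 amino acids. Such low numbers give no difference between the libraries at this depth.

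The beta chains of members were set beside those of cells with 1 TRB and no TRA chain. Intervals were apart for 0 of 17 TRBV subgroups in WT (0%), 0 of 18 in Btla KO (0%) and 0 of 12 TRBJ genes in each (0%). The largest differences were 1.69 percentage points in WT and 1.81 in Btla KO, both for TRBV12, and for J genes 1.32 for TRBJ2-3 in WT and 2.12 for TRBJ2-2 in Btla KO. The TRB CDR3 was shorter in members in both libraries, 14.1 ± 1.48 beside 14.3 ± 1.54 amino acids in WT and 14.2 ± 1.51 beside 14.3 ± 1.51 in Btla KO. The differences were -0.171 ± 0.051 (SE over cells) and -0.174 ± 0.047 amino acids. Within TRBJ genes they were -0.164 and -0.165. The median TRB UMIs were 13 in both sets of WT cells and 10 in both sets of Btla KO cells.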

How the data were processed

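The data are 1 WT and 1 Btla KO library of single-cell TCR transcripts from CD4 SP thymocytes. Per the labels and the study's methods, the authors used Cell Ranger 7.2.0 with a GRCm38 reference to assemble reads and annotate productive contigs. For each contig they deposited the raw count of its reads and of its UMIs, not normalized. The series tables of gene usage, clones and CDR3 lengths were not used here.

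Members were barcodes with 1 TRA and 1 TRB contig. The rule, the gene groups, the measures and the alternatives were chosen with earlier results of these data known. No droplet was removed as a doublet, and leaving out barcodes with more chains leaves out some droplets with more than 1 cell. V subgroups fold in D, N and DV suffixes. Expected pairs are the product of both usages in a library, with at least 5 cells and a fold of 1.5. Named genes and pairs were the 5 most used, the 3 genes with the largest difference among those with at least 1%, the 5 pairs with the highest and the 5 with the lowest ratio among those with at least 10 expected cells over both libraries and on 1 side of 1 in both, and the 3 genes with the shortest and longest CDR3 among those with at least 30 members; of these the text names a part, and pairs past the fold in both libraries are named as well. CDR3s are those of the contig annotation, and 63 WT and 46 Btla KO TRA chains and 1 TRB chain in each library did not end in phenylalanine or tryptophan. Germline J bases kept are the longest common end of CDR3 and germline.

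Gene positions come from GENCODE M21, in which all 170 gene names were found, and germline J sequences from the GRCm38 genome. Intervals are exact and at 95%. With 1 library per genotype no test was made. The pairing counts and length correlations were tested on simulated data before use. Alternatives were chains with at least 3 UMIs, each distinct pair once, barcodes of both libraries left out, cells with more chains taken by their contigs with most reads, other gene groups, boundaries and expected numbers, and other length and charge measures. Computations used Python 3.11.15, pandas, numpy, scipy, pysam and matplotlib.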

Additional observations from a re-analysis of the deposited data

How the results depend on the processing

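Of 237 values under alternatives, 222 stayed within the 95% interval of the value reported and 15 moved. Shares of cells and of pairs cannot be negative, so a change of sign was possible only for correlations and differences. Among these, no value whose interval excluded 0 changed sign. Of those whose interval held 0, 6 did. They were 3 r values between the libraries, 2 r values of the CDR3 lengths and 1 difference between shares. The last was that of TRAJ1 to TRAJ30 in the middle TRAV group. With only contigs of at least 3 UMIs, members made up 24.3% of WT and 16.3% of Btla KO barcodes in place of 34.8 and 28.9%. With both chains at 3 UMIs or more, fewer pairs reached the expected number: TRAV with TRBV passed the fold in 22.2% of 54 Btla KO pairs, TRAV with TRBJ in 18.2% of 55 and TRAV with the TRAJ groups in 14.7% of 34. For TRAV with TRBV, r between the libraries was 0.24 over 103 pairs with every cell that had both chains, in place of 0.05. At 3 UMIs or more it was -0.22 for TRAV with TRBJ, -0.080 for TRBV with TRBJ and 0.48 over 33 pairs for TRAV with the TRAJ groups, where all members gave 0.90 over 40 pairs and those without TRAV21 gave 0.72 over 37. TRAV with the TRAJ groups passed the fold in both libraries in 2 of those 33 pairs and in 4 of those 37, and TRBV with TRBJ in 1 of 44 in place of 5 of 111. With at least 10 expected cells, TRAV with TRBV passed the fold in 3 of 38 WT pairs (7.89%) and 1 of 44 Btla KO pairs (2.27%). Over the TRAV subgroups at the ends alone, rho of TRAV distance and TRAJ number was -0.53 in WT and -0.72 in Btla KO. With the boundary at TRAJ20, the Btla KO share exceeded the WT share by 0.237 percentage points in the nearest and 7.36 in the middle group. The r of the CDR3 lengths ran from -0.008 to 0.029 in WT and from -0.001 to 0.048 in Btla KO over all alternatives run. Single V genes left too few pairs with 5 expected cells for a value, and TRAJ with TRBJ had no r between the libraries at 3 UMIs. The alternatives for TRAV with TRBJ, the TRAJ groups with TRBV, CDR3 ends, TRAV21, TRAV11 with TRAJ18 and within TRBJ genes were added after the data were seen. Leaving out a library was not possible with 1 per genotype, so differences between mice or preparations cannot be told apart from genotype. TRA chains rest on few UMIs, and cells whose TRA chain was not captured are missing from the members.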
